A study of Mus musculus with 12 samples.

Results

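The response to interferon gamma (IFN-γ) in macrophages that had also been given Remodelin hydrobromide was read from 6 RNA-seq libraries of mouse peritoneal macrophages, the phagocytes of the abdominal cavity. Of these, 3 came from cells given Remodelin hydrobromide with IFN-γ and 3 from cells given Remodelin hydrobromide only, so that the compound was present on both sides and IFN-γ on one. They are 6 of the 12 libraries of the series, whose remaining groups are 3 libraries of cells given IFN-γ only and 3 of untreated control cells. The libraries were chosen by their treatment labels, with no measured value involved. Of 55586 genes in the deposited count table, 13474 passed a filter on low counts and were tested. The labels' protocols place the Remodelin step before the IFN-γ step, and the sources used here give neither the dose nor the exposure time of either agent, nor the strain, age and sex of the mice. Whether the 3 libraries of each group are from different cultures or mice is not stated, so each p-value is set against a library-to-library spread that may be technical.

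IFN-γ is the classical activating cytokine of macrophages. It binds a receptor made of the chains IFNGR1 and IFNGR2, whose kinases JAK1 and JAK2 start a signal that ends at gamma-activated sites (GAS) in promoters. Among the early targets are the transcription factor IRF1, which binds interferon-stimulated response elements (ISRE), the feedback inhibitor SOCS1, guanylate-binding proteins (GBPs) and immunity-related GTPases (IRGs) that attack intracellular pathogens, antigen-presentation genes and the chemokines CXCL9 and CXCL10. Remodelin is an inhibitor of NAT10, the enzyme that acetylates cytidines of RNA to N4-acetylcytidine (ac4C), and the title of the series ties loss of this mark in macrophages to liver cancer.

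The 6 libraries held 15917454 to 18148682 counts, and the markers of the labelled cell type were abundant in all of them. Summed over 15 pan-macrophage genes, the level was 20684 to 28715 CPM (counts scaled to a common library total, with TMM normalisation) in the Remodelin with IFN-γ libraries and 18646 to 30790 CPM in the Remodelin libraries. Markers of other cell types summed to less than those of macrophages, but not all were near 0. The 8 NK cell genes summed to 0.312 to 0.574 CPM with IFN-γ and 0.0577 to 0.448 CPM without, with Ncr1, Gzma, Gzmb, Eomes and Nkg7 at 0 reads in all 6 libraries. For the 11 T cell genes the sums were 3.12 to 4.60 CPM with IFN-γ and 3.81 to 5.31 CPM without, with Cd8a at 0. The B cell sums were 50.2 to 65.6 CPM with IFN-γ and 62.5 to 75.2 CPM without. Mesothelial sums were 55.6 to 74.7 and 57.3 to 69.4 CPM, and neutrophil sums 32.5 to 36.2 and 29.8 to 33.6 CPM, in the same order. The largest of these lists was that of fibroblast genes, which summed to 366 to 499 CPM with IFN-γ and 305 to 532 CPM without. Timd4, a marker of large resident peritoneal macrophages, had at most 2 reads in any of the 6 libraries, while Gata6, the transcription factor that defines them, was measured at 11.6, 15.7 and 15.3 CPM with IFN-γ and 9.54, 12.5 and 17.3 CPM without. One library stood apart. Across 13339 genes with a known transcript sequence, the deviations of Remodelin with IFN-γ library 1 from the 12-library mean had a Spearman correlation of -0.69 with transcript GC content, against -0.373 to 0.264 in the other 5 libraries. These are correlations across genes, which are not independent replicates, and results that rest on this library are given below with and without it. In bulk RNA a smaller number of cells of a type and less of an RNA per cell cannot be told apart.

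No gene passed the test for a difference between macrophages given Remodelin with IFN-γ and macrophages given Remodelin only. By edgeR's quasi-likelihood test with Benjamini-Hochberg adjustment over all 13474 genes, 0 were higher and 0 were lower (0% in each direction), and the smallest adjusted p was 0.235. At an unadjusted p under 0.05 there were 1043 genes, of which 808 had the higher level with IFN-γ (6.0% of genes tested) and 235 the lower (1.74%). The 3 libraries with IFN-γ lay all above the 3 without for 807 genes (5.99%) and all below for 470 genes (3.49%). DESeq2 called 1 gene, Lsm5, both on the 24366 genes with any read and on the 13474 genes of the count filter, and limma-voom called 0 on the 13474. In the authors' deposited table for the same comparison, 1 gene, again Lsm5, had an adjusted p under 0.05 and 424 genes had an unadjusted p under 0.05. The data bound most effects from above. The 95% confidence interval of the fold change ended below 2-fold for 11367 genes (84.4%), and the median standard error of a log2 fold change was 0.22.

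Genes of the interferon system likewise gave no call. The 7 lists on the receptor and JAK-STAT pathway, IFN-γ-inducible transcription factors, GBPs and IRGs, antiviral genes, class I presentation, class II presentation and chemokines held 149 genes, of which 128 were tested and 21 were below the count filter. None of the 128 was called. At an unadjusted p under 0.05 there were 6 with the higher and 2 with the lower level with IFN-γ, beside the backgrounds of 6.0% and 1.74% over all genes. Their fold changes were positive for 64 of 128, beside 49.2% of all genes tested. The median was -0.00048 on the log2 scale, beside -0.0064 over all genes. The upper confidence bound was under 2-fold for 107 of the 128 (83.6%), beside 84.4% of all genes tested. In the GBP and IRG list it was under 2-fold for 4 of the 9 genes tested. Over all 39 lists 545 of 629 genes were tested and 0 called, with 31 at an unadjusted p under 0.05 on the higher side and 11 on the lower.

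**Figure D1:**
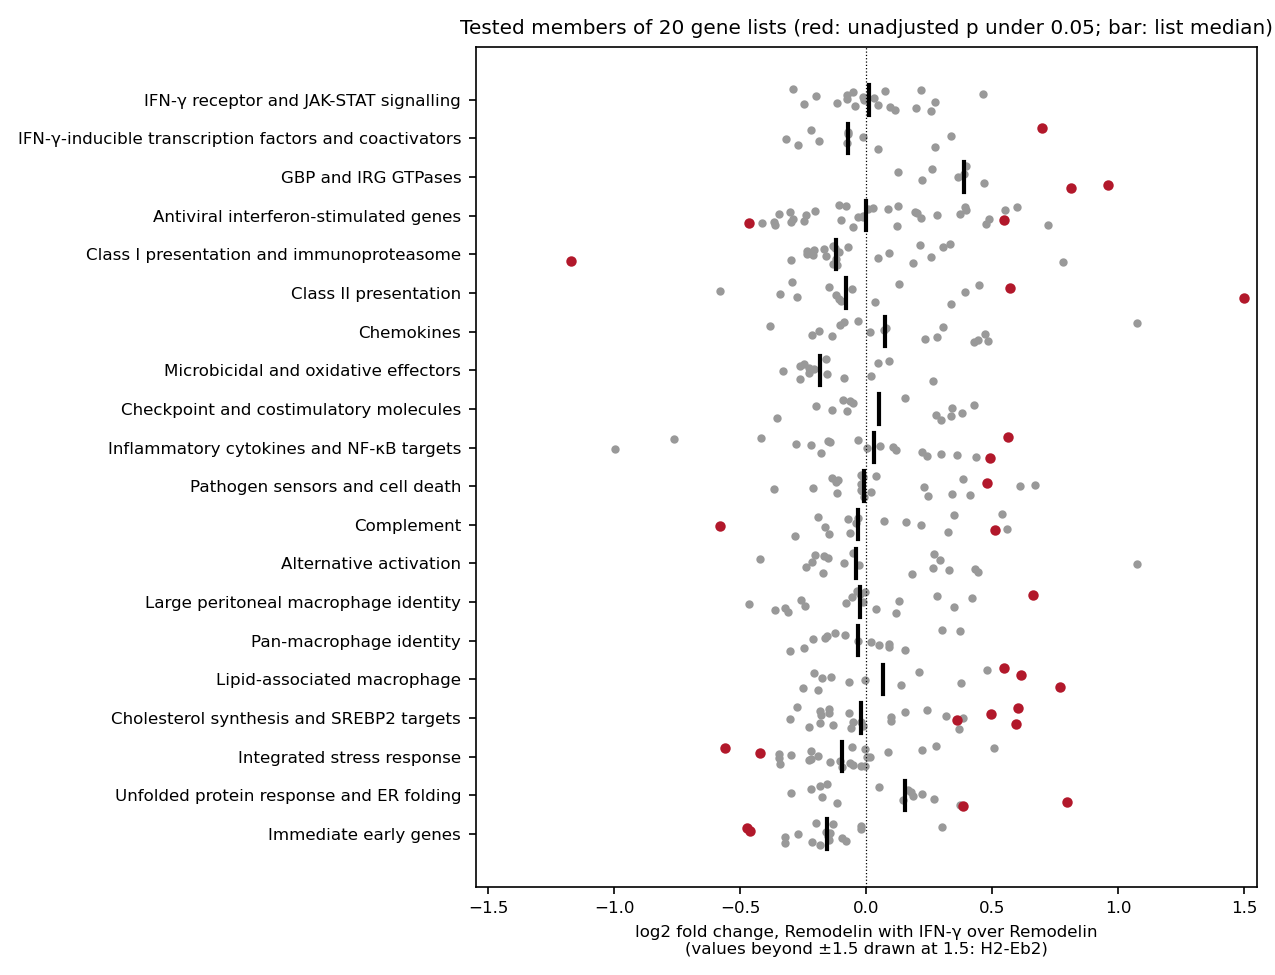
Log2 fold changes of Remodelin with IFN-γ over Remodelin for the tested members of 20 gene lists, 1 point per gene, with the list median as a black bar and genes with an unadjusted p under 0.05 in red. Points of each list spread on both sides of 0, except for the GBP and IRG GTPases, whose 9 tested members all lie to the right of it. Of the 18 tested immediate early genes 1 lies to the right, with a list median of -0.16 (-0.059 with GC trends removed).

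The receptor and signalling genes were expressed in both groups. All 20 members of the list were tested, none had an unadjusted p under 0.05, and the median log2 fold change was 0.011. Ifngr1, the ligand-binding chain, was measured at 104.8, 75.3 and 79.3 CPM in the Remodelin with IFN-γ libraries, against 67.4, 76.9 and 73.0 CPM in the Remodelin libraries. Library 1 with IFN-γ was the high one and the groups overlapped, with a log2 fold change of 0.25 ± 0.15 (SE) that became 0.08 without that library. Ifngr2, the signalling chain, averaged 187 ± 15.2 CPM with IFN-γ and 173 ± 10.1 CPM without (SD, n = 3 each), with overlapping groups. Socs1, the feedback inhibitor of JAK kinases, had 2.00, 1.62 and 3.15 CPM with IFN-γ against 3.27, 1.79 and 1.79 CPM without. Its groups overlapped and its interval ran from -0.66 to 0.64 on the log2 scale. Ptpn2, a phosphatase that restrains JAK signalling, averaged 10.7 ± 4.49 CPM with IFN-γ and 7.72 ± 1.71 CPM without, and its log2 fold change of 0.46 was 0.05 without library 1 with IFN-γ. Stat2, a factor of type I interferon signalling, had a log2 fold change of -0.25 ± 0.18 that was -0.11 without library 1 with IFN-γ, with overlapping groups.

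**Figure D2:**
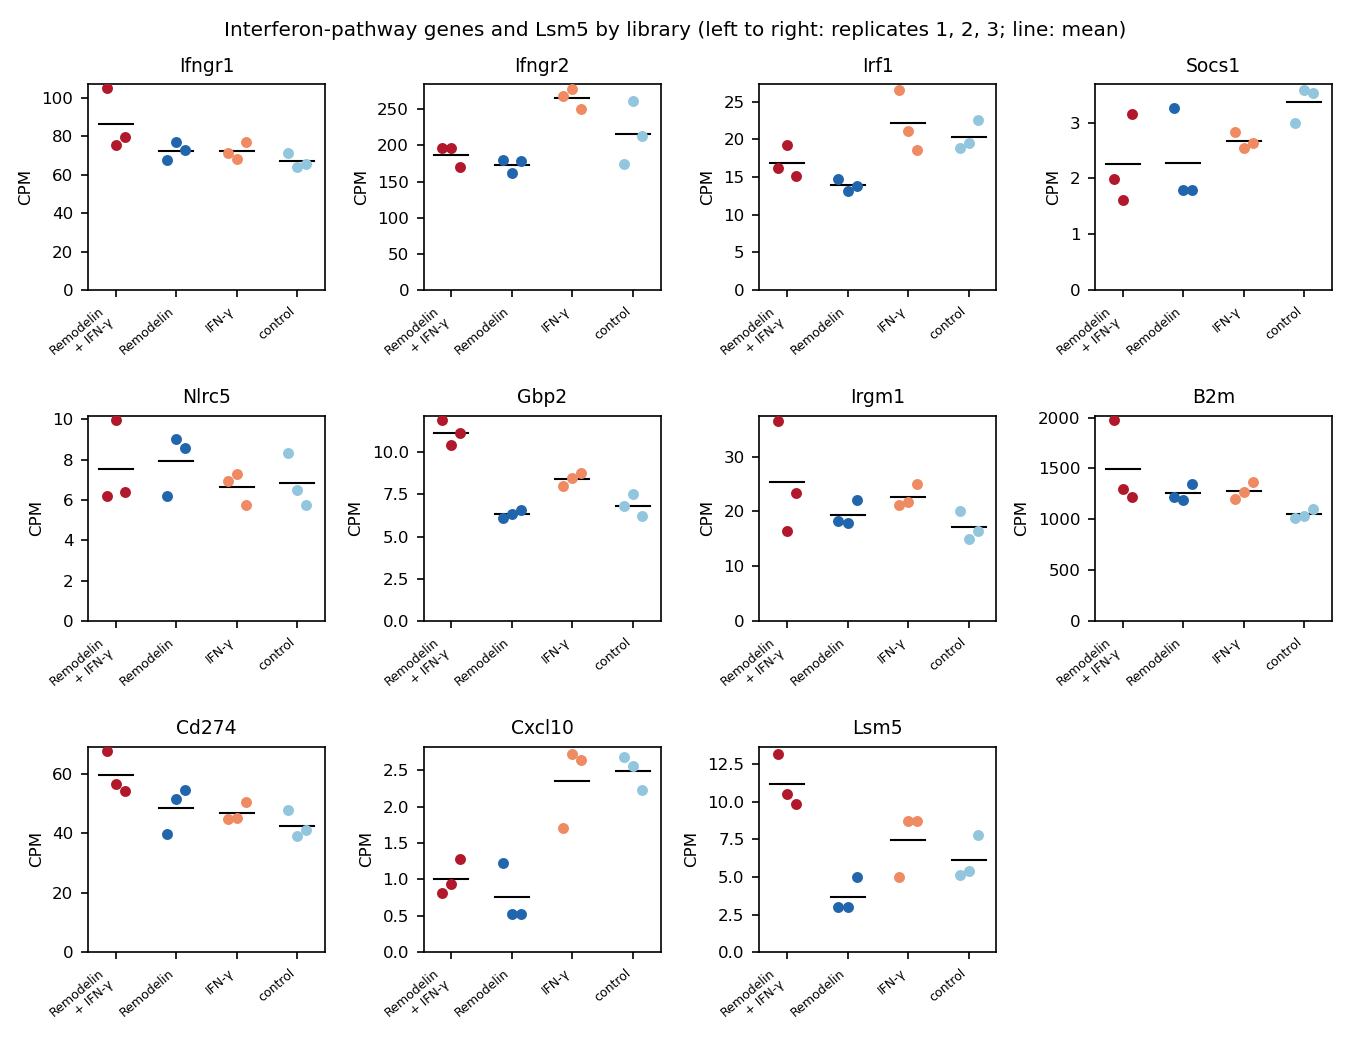
CPM of 11 genes in each of the 12 libraries, as points ordered by replicate number from left to right within a group, with the group mean as a line. For Gbp2 and Lsm5 the 3 Remodelin with IFN-γ libraries lie above the 3 Remodelin libraries, as they do for Irf1 by a smaller margin, while the groups overlap for the others.

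Of the 12 IFN-γ-inducible transcription factors and coactivators, 1 had an unadjusted p under 0.05, on the higher side, and the median log2 fold change was -0.072. Irf1, an early target of IFN-γ, was measured at 16.2, 19.3 and 15.1 CPM with IFN-γ and 14.8, 13.2 and 13.9 CPM without. All 3 libraries with IFN-γ lay above all 3 without, but by little, and the log2 fold change of 0.27 ± 0.18 had an adjusted p of 0.696 by edgeR. Its interval reached 1.56-fold at most. Nmi, which binds STAT proteins, was the member under the unadjusted threshold, with 10.7, 4.49 and 4.83 CPM with IFN-γ and 4.61, 3.17 and 4.51 CPM without. Only library 1 with IFN-γ stood well above the others, and the log2 fold change of 0.70 was 0.17 without it. Ciita, the master regulator of class II genes, was close to the detection limit at 0.187, 0.835 and 0.990 CPM with IFN-γ and 0.512, 0.634 and 0.462 CPM without, where 3 reads corresponded to 0.157 to 0.192 CPM. Nlrc5, its counterpart for class I genes, averaged 7.52 ± 2.12 CPM with IFN-γ and 7.92 ± 1.5 CPM without. Irf5, a factor of inflammatory macrophage activation, had all 3 libraries with IFN-γ (145, 168 and 156 CPM) below all 3 without (182, 181 and 171 CPM), with a log2 fold change of -0.19 that was -0.054 with GC trends removed and an adjusted p of 0.696 by edgeR. Cebpb, a factor of myeloid cells, averaged 176 ± 7.90 CPM with IFN-γ and 205 ± 38.1 CPM without, with overlapping groups.

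The GBP and IRG GTPases, the gene families most characteristic of an IFN-γ response in mouse macrophages, stood at low levels. Of 20 members 11 were below the count filter. Iigp1, an IRG that disrupts parasite vacuoles, had 2, 3 and 1 reads in the Remodelin with IFN-γ libraries and 1 read in each Remodelin library. Gbp4 had 5, 0 and 4 reads with IFN-γ and 0, 3 and 1 reads without. The 9 members that passed the filter all had positive log2 fold changes, with a median of 0.39, and 2 of them, Gbp2 and Gbp3, had an unadjusted p under 0.05. Without library 1 with IFN-γ the median was 0.072, and with GC trends removed library by library it was 0.22. Among these genes Gbp2 was the member with the smallest p, and the second smallest of all 13474 genes.

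Gbp2 (ENSMUSG00000028270), a GBP that coats pathogen vacuoles, was measured at 11.9, 10.4 and 11.1 CPM in macrophages given Remodelin with IFN-γ, against 6.09, 6.34 and 6.59 CPM in macrophages given Remodelin only. The groups did not overlap, and each was tight. The log2 fold change was 0.81 ± 0.17 (SE), a fold of 1.36 to 2.27 by its 95% confidence interval, with an unadjusted p of 0.00022 and an adjusted p of 0.636 by edgeR's quasi-likelihood test. It was 0.75 without library 1 with IFN-γ and 0.69 with the GC trends removed, and 0.65 to 0.86 over all alternative settings. In the authors' deposited table the log2 fold change was lower, at 0.57, and its adjusted p was not under 0.05. In cells without Remodelin the levels were 7.98, 8.48 and 8.76 CPM with IFN-γ and 6.78, 7.49 and 6.19 CPM in controls, also without overlap, with a log2 fold change of 0.30 ± 0.17. The difference between the 2 effects, 0.51 ± 0.25, did not pass the test (adjusted p = 1 by edgeR). Gbp3 lay far lower, at 2.44, 0.835 and 1.46 CPM with IFN-γ and 0.961, 0.461 and 0.983 CPM without. Its groups overlapped, and its log2 fold change of 0.96 was 0.49 without library 1. Irgm1, an IRG that regulates the other family members, had 36.4, 16.5 and 23.4 CPM with IFN-γ and 18.2, 17.9 and 22.1 CPM without. The high value was that of library 1, without which its log2 fold change of 0.39 was 0.02. Ifi47, another IRG, likewise had a log2 fold change of 0.39 that was 0.06 without that library. GBP genes are close copies of each other, and the sources used here do not say how the counting divided reads between them.

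Promoter letters of these genes are shown because they carry the elements through which IFN-γ is known to act. Each sequence covers the 150 bases before the start of the gene, from RefSeq on build GRCm38.p6, in the direction of the gene. Capitals mark the ISRE core (GAAA, any 2 bases, GAAA, on either strand) or the GAS (TTC, any 3 bases, GAA, which reads the same on both strands).
Gbp2, chr3:142620513-142620662, plus strand: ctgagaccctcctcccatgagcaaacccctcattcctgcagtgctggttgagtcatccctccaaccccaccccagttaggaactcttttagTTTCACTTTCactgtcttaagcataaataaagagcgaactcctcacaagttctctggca
Irgm1, chr11:48871421-48871570, minus strand: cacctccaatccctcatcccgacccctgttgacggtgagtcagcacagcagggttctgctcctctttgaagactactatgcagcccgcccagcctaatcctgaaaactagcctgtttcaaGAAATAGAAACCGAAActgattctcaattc
Socs1, chr16:10785537-10785686, minus strand: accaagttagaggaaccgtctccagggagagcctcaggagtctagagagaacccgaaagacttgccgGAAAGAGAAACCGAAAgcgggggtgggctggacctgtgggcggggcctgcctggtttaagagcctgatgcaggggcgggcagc
Irf1, chr11:53769864-53770013, plus strand: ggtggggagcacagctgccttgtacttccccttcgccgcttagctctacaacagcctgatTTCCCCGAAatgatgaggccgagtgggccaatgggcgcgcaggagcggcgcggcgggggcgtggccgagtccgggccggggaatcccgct
Gbp2 has 1 ISRE core that begins 59 bases before the start, Irgm1 and Socs1 have 2 overlapping ones each that begin 30 and 83 bases before it, and Irf1 has 1 GAS that begins 90 bases before the first of its listed starts. In windows from 250 bases before to 50 bases after the start, the ISRE core was present in 10 of 12 promoters of the GBP and IRG list (83.3%) and in 18 of 36 of the antiviral list (50%), against 1131 of all 32851 promoters in the table (3.44%). It was present in 5 of 22 class I promoters (22.7%), 2 of 17 chemokine promoters (11.8%) and 0 of 10 promoters of the IFN-γ-inducible transcription factors. Cd274, Cxcl9 and Lsm5 have neither element in the 150 bases before the start. The GAS letters were present in 6 of 12 GBP and IRG promoters (50%) and in 2726 of all promoters (8.3%). The 12 GBP and IRG promoters belong to 11 of the 20 genes of the list. A match is a description of letters and not of binding. Of the 4 genes printed, Gbp2 had a 95% confidence interval of its log2 fold change that left out 0, and the intervals of Irgm1, Socs1 and Irf1 held it.

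Antiviral interferon-stimulated genes were expressed without a common direction. Of 40 members 36 were tested, 18 had positive fold changes, 1 on each side had an unadjusted p under 0.05 and the median log2 fold change was -0.0021. Rsad2, which blocks viral replication, had 8.93, 6.26 and 6.52 CPM with IFN-γ and 4.55, 4.44 and 5.84 CPM without. These groups did not overlap, and the log2 fold change of 0.55 ± 0.25 was 0.35 without library 1 with IFN-γ. Cmpk2, its neighbour in the genome and a nucleotide kinase, had 2.37, 2.24 and 2.56 CPM with IFN-γ and 1.67, 1.79 and 1.44 CPM without, again without overlap (adjusted p = 0.655 by edgeR). In the other direction stood Oas1a, a sensor of double-stranded RNA, with 65.2, 63.4 and 64.9 CPM with IFN-γ and 120, 80.3 and 66.5 CPM without. The 3 values with IFN-γ were nearly the same and the spread was among the Remodelin libraries, of which library 1 was the high one, and the log2 fold change of -0.47 ± 0.21 was -0.19 without that library (adjusted p = 0.636 by edgeR with all libraries). Herc6, an ISG15 ligase in the mouse, averaged 2.99 ± 0.657 CPM with IFN-γ and 1.96 ± 0.993 CPM without, with overlapping groups.

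Class I genes summed to 9064 to 9678 CPM with IFN-γ and 9031 to 10463 CPM without. Class II genes summed to 4901 to 10273 CPM with IFN-γ and 4051 to 5248 CPM without, mostly from Ctss, given below. In the class I list, with 23 genes tested and a median log2 fold change of -0.12 (0.0011 without Remodelin library 1 and -0.015 with GC trends removed), 1 gene had an unadjusted p under 0.05, on the lower side. This was H2-Q7, a non-classical class I gene, with 0.687, 1.20 and 0.699 CPM with IFN-γ and 2.75, 1.85 and 1.33 CPM without. Its groups did not overlap and the log2 fold change was -1.17 ± 0.41 (adjusted p = 0.636 by edgeR), but H2-Q genes are near-identical copies whose reads the counting could divide. B2m, the light chain of every class I molecule, had 1973, 1301 and 1219 CPM with IFN-γ and 1224, 1190 and 1350 CPM without. Library 1 with IFN-γ was the high one, and the log2 fold change of 0.26 was -0.01 without it. Pdia3, a chaperone of the peptide-loading complex, averaged 352 ± 62.0 CPM with IFN-γ and 280 ± 38.2 CPM without, and H2-T22, another non-classical class I gene, averaged 140 ± 9.38 CPM with IFN-γ and 172 ± 26.5 CPM without. Neither had an unadjusted p under 0.05. For class II, 16 genes were tested, with a median of -0.079 (0.026 without Remodelin library 1) and 2 on the higher side at an unadjusted p under 0.05. Of these, Ctss, the protease that trims the invariant chain, had 9798, 4368 and 4898 CPM with IFN-γ and 4634, 3486 and 4733 CPM without, and its log2 fold change of 0.57 was 0.09 without library 1. H2-Eb2 was near 0, at 0.187, 0.626 and 0.291 CPM with IFN-γ and 0, 0.0577 and 0 CPM without, too few reads for its fold to be given. Rfx5, a subunit of the factor that binds class II promoters, had 3.37, 4.02 and 4.14 CPM with IFN-γ and 2.50, 2.77 and 3.18 CPM without, with no overlap and a log2 fold change of 0.45 ± 0.23. Rfxank, another subunit of the same factor, lay the other way, at 12.9, 12.6 and 13.3 CPM with IFN-γ and 19.1, 14.8 and 13.8 CPM without, with a log2 fold change of -0.30 ± 0.18 that was -0.14 without Remodelin library 1. Both had an adjusted p above 0.6 by edgeR.

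Several hallmark genes of classical activation had no reads, while other members of the same lists were abundant. Cxcl9, a chemokine for T cells that IFN-γ induces, had 0 reads in all 6 libraries, as had Cxcl11 and Nos2, the inducible nitric oxide synthase. A count of 0 allows up to 3 reads, which is 0.157 to 0.192 CPM in these libraries by counting error only. Cxcl10 was detected, at 0.812, 0.939 and 1.28 CPM with IFN-γ and 1.22, 0.519 and 0.520 CPM without, and its groups overlapped. Of 24 chemokines 18 were tested, with a median log2 fold change of 0.073 (-0.13 without library 1 with IFN-γ), and none had an unadjusted p under 0.05. Ccl2, which recruits monocytes, had a log2 fold change of 0.47 that was 0.02 without library 1 with IFN-γ. Ccl22, a ligand of CCR4, had 0.562, 0.939 and 0.524 CPM with IFN-γ and 0.448, 0.231 and 0.289 CPM without, with no overlap. Of 18 microbicidal and oxidative effectors 14 were tested, 4 had positive fold changes and the median was -0.19, or -0.074 without Remodelin library 1 and -0.10 with GC trends removed. Among them Gch1, which makes the cofactor of nitric oxide synthase, averaged 53.3 ± 4.18 CPM with IFN-γ and 64.0 ± 14.1 CPM without, and Slc11a1, a metal transporter of the phagosome, averaged 641 ± 107 CPM with IFN-γ and 751 ± 55.0 CPM without. Cd274, which encodes the checkpoint ligand PD-L1, had 67.9, 56.8 and 54.3 CPM with IFN-γ and 39.7, 51.6 and 54.5 CPM without. Its groups overlapped only between the lowest library with IFN-γ and the highest without, and its log2 fold change of 0.30 ± 0.16 was 0.18 without library 1. Cd40, a costimulatory receptor, averaged 5.00 ± 0.700 CPM with IFN-γ and 6.40 ± 1.21 CPM without. Tnf, the inflammatory cytokine, was the steadiest of these genes, at 7.31, 7.20 and 7.16 CPM with IFN-γ and 5.57, 4.56 and 5.32 CPM without. The groups did not overlap, and the log2 fold change of 0.49 ± 0.19 was 0.46 without library 1 and 0.54 with GC trends removed (adjusted p = 0.636 by edgeR with all libraries).

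**Figure D3:**
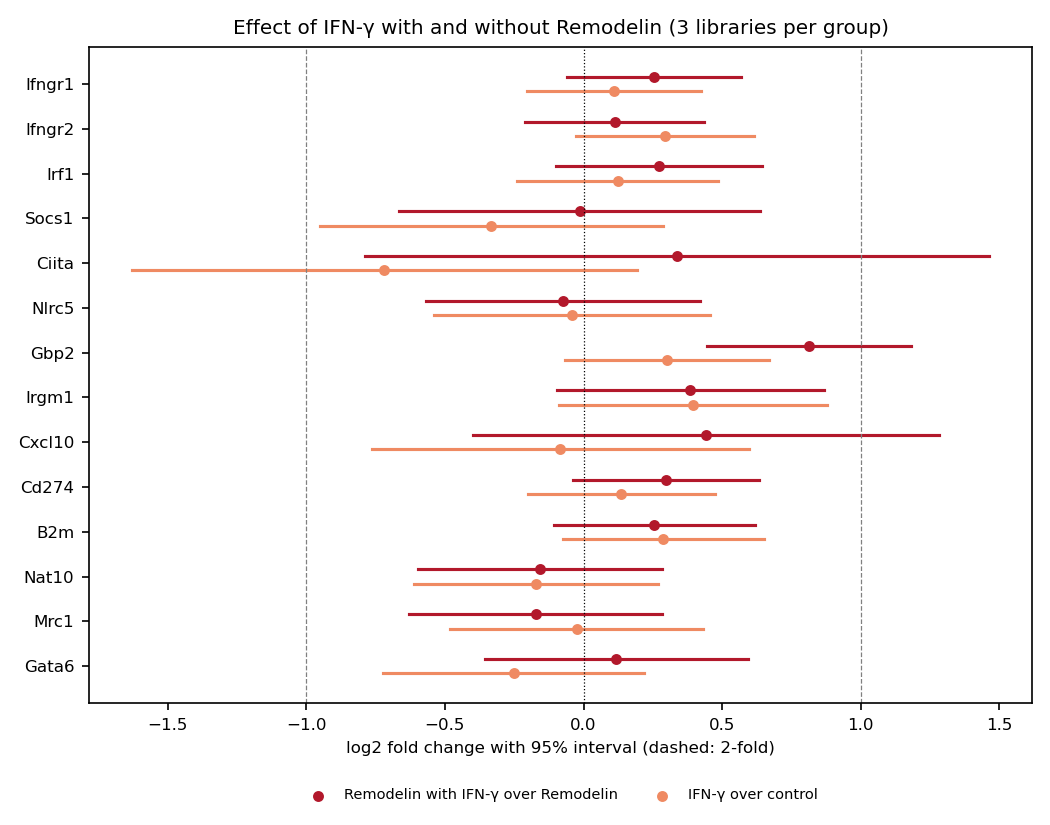
Log2 fold changes with 95% confidence intervals for 14 genes, for Remodelin with IFN-γ over Remodelin (dark red) and for IFN-γ over control (orange), with dashed lines at 2-fold. Apart from Gbp2, with an interval of 0.44 to 1.18, every interval of the first comparison includes 0.

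Nat10, the target of Remodelin, was measured at 11.6, 19.4 and 16.7 CPM with IFN-γ and 16.5, 22.5 and 14.2 CPM without, so that its message did not separate the groups. Markers of macrophage state gave few values under the threshold. Of 18 alternative activation genes tested none had an unadjusted p under 0.05, and Mrc1, the mannose receptor, averaged 84.8 ± 3.78 CPM with IFN-γ and 95.5 ± 28.9 CPM without. The lipid-associated list had 3 of 14 genes at an unadjusted p under 0.05 on the higher side, beside 6.0% of all genes tested. It had 0 without library 1 with IFN-γ. Spp1, which encodes osteopontin, shows the pattern, with 4452, 1470 and 1501 CPM with IFN-γ and 1483, 1229 and 1650 CPM without. Mmp12, the macrophage elastase, had 8200, 4207 and 3873 CPM with IFN-γ and 3823, 3201 and 4133 CPM without, and Cd36, a scavenger receptor, had 2905, 1097 and 1076 CPM with IFN-γ and 975, 1010 and 1333 CPM without. In each of the 3 genes library 1 with IFN-γ was the highest of the 6 and the other libraries with IFN-γ lay near the Remodelin libraries. The fibroblast matrix gene Dcn followed the same course at 169.8, 67.4 and 66.9 CPM with IFN-γ and 59.3, 50.3 and 72.6 CPM without, while Col1a1 was lowest in library 1 with IFN-γ at 34.2 CPM. Lum, another matrix gene of that list, had 2.75, 0.887 and 1.57 CPM with IFN-γ and 0.577, 0.173 and 0.751 CPM without, with no overlap, and its log2 fold change of 1.77 ± 0.49 was 1.27 without library 1 and 1.51 with GC trends removed. GC contents in this group ran from 37.4% for Dcn and 38.4% for Cd36 to 58.9% for Col1a1. The part of library composition in these values was not tested.

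Among cholesterol and stress genes a few values changed little without that library. In the cholesterol synthesis list 11 of 25 genes had positive fold changes, and the median log2 fold change was -0.021. On the higher side 4 of the 25 had an unadjusted p under 0.05, beside 6.0% of all genes tested. Without library 1 with IFN-γ there was 1. That gene, Stard4, a cholesterol transporter, had 19.4, 19.7 and 17.9 CPM with IFN-γ and 9.10, 12.9 and 15.5 CPM without. The groups did not overlap, with a log2 fold change of 0.60 ± 0.19 (adjusted p = 0.636 by edgeR with all libraries). It was 0.58 without library 1 with IFN-γ, but 0.42 without Remodelin library 1 and 0.43 with GC trends removed. Sc5d, a sterol desaturase, also had no overlap, but its log2 fold change of 0.50 was 0.22 without library 1 with IFN-γ. The integrated stress response list had 2 of 25 genes under the unadjusted threshold on the lower side, beside 1.74% of all genes tested. These were Gdf15 and Sesn2. Gdf15, a stress-induced hormone, had 74.5, 79.4 and 83.8 CPM with IFN-γ and 133, 111 and 107 CPM without. Its groups lay clearly apart, with a log2 fold change of -0.56 ± 0.14 that was -0.54 without library 1 with IFN-γ and -0.34 with GC trends removed, and an adjusted p of 0.636 by edgeR. Sesn2, a stress-induced inhibitor of mTORC1 signalling, had 23.5, 37.0 and 32.7 CPM with IFN-γ and 39.8, 47.5 and 37.9 CPM without, with library 1 again the lowest. In the list on the unfolded protein response, Dnajb9, a co-chaperone of the endoplasmic reticulum, had 43.4, 22.6 and 26.4 CPM with IFN-γ and 15.2, 16.3 and 21.6 CPM without, with no overlap and a log2 fold change of 0.80 ± 0.21 that was 0.45 without library 1. Among complement genes C1s1, a protease of the classical pathway, had 43.8, 32.4 and 34.8 CPM with IFN-γ and 24.1, 25.8 and 27.9 CPM without, again with no overlap. Its log2 fold change of 0.51 ± 0.17 was 0.36 without library 1. Of 17 complement genes tested, 1 on each side had an unadjusted p under 0.05, and the median log2 fold change was -0.035. The gene on the lower side was C4b, with a log2 fold change of -0.58 that was -0.51 without library 1 with IFN-γ.

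Since no gene was called, some of the genes with the smallest p are described here, chosen after their values were seen. Lsm5 (ENSMUSG00000091625), a subunit of the ring-shaped LSM complexes that bind the 3′ ends of U6 RNA and of messages marked for decay, had 13.2, 10.5 and 9.84 CPM in macrophages given Remodelin with IFN-γ, against 3.01, 3.00 and 4.97 CPM in macrophages given Remodelin only. The lowest library with IFN-γ was well above the highest without. The log2 fold change was 1.61 ± 0.27 (SE), with an interval of 1.03 to 2.18 and an adjusted p of 0.235 by edgeR's quasi-likelihood test, 0.0010 by DESeq2 on the genes with any read and 0.268 by limma-voom. DESeq2 on the genes of the count filter, a setting chosen after seeing the data, gave an adjusted p of 0.00026. In the authors' deposited table it was 1.01, with an adjusted p of 0.0026. Without Remodelin, Lsm5 had 4.98, 8.71 and 8.70 CPM with IFN-γ and 5.11, 5.38 and 7.82 CPM in controls, so that the 2 groups overlapped and the Remodelin libraries were the lowest set of the 4. The IFN-γ effect over Remodelin minus that over control was 1.32 ± 0.38 (adjusted p = 1 by edgeR). Of the 13 Lsm genes tested, Lsm8, the subunit that keeps the complex on U6 RNA, was the only other with all 3 libraries with IFN-γ (52.5, 39.9 and 38 CPM) above all 3 without (29.3, 25.7 and 29.4 CPM), with a log2 fold change of 0.63 ± 0.16. Lsm5 has the GC content of an AT-rich transcript, 34.0%, and Lsm8 has 39.7%. With GC trends removed the log2 fold changes were 1.34 for Lsm5 and 0.35 for Lsm8.

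Other leading genes had different roles. Rpl22l1, a paralog of the ribosomal protein RPL22, had 96.4, 71.9 and 74.3 CPM with IFN-γ and 51.4, 49.0 and 45.8 CPM without, which makes a log2 fold change of 0.73 ± 0.18. Hmgb2, a chromatin protein of proliferating cells, had 35.9, 17.4 and 20.4 CPM with IFN-γ and 10.2, 12 and 16.1 CPM without, with a log2 fold change of 0.94 ± 0.24. Neither set overlapped. With GC trends removed the values were 0.50 for Rpl22l1 and 0.63 for Hmgb2, and without library 1 with IFN-γ they were 0.57 and 0.55. On the lower side Kif20b, a mitotic kinesin, had 0.312, 0.209 and 0.349 CPM with IFN-γ and 0.961, 1.10 and 1.79 CPM without. Its log2 fold change of -2.13 ± 0.50 was -2.20 without that library, but the levels with IFN-γ correspond to a handful of reads. All 3 genes had an adjusted p of 0.636 by edgeR. Of 25 cell cycle genes 1 had an unadjusted p under 0.05, and 19 had positive fold changes, beside 49.2% of all genes tested. The median was 0.13, or 0.10 without library 1 with IFN-γ and 0.080 with GC trends removed. These genes had a median GC content of 47.8%.

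Genes under the unadjusted threshold rested largely on a single library. Of the 808 with the higher level with IFN-γ, 703 had their highest value among all 12 libraries in Remodelin with IFN-γ library 1. Among the 6 libraries compared, it was the highest for 729 of the 808 and for 3842 of all 13474 genes tested. The 808 were selected as higher in the group to which this library belongs. Without this library there were 179 genes on the higher side, 132 of them among the 808, and 184 on the lower side. Without Remodelin library 2 there were 392 on the higher side, and without the other 4 libraries in turn between 666 and 1209. On the lower side the counts were 384 without Remodelin library 1, 404 without Remodelin library 3 and 415 without Remodelin with IFN-γ library 2. With GC trends removed there were 450 on the higher side, 356 of them among the 808, and 253 on the lower.

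**Figure D4:**
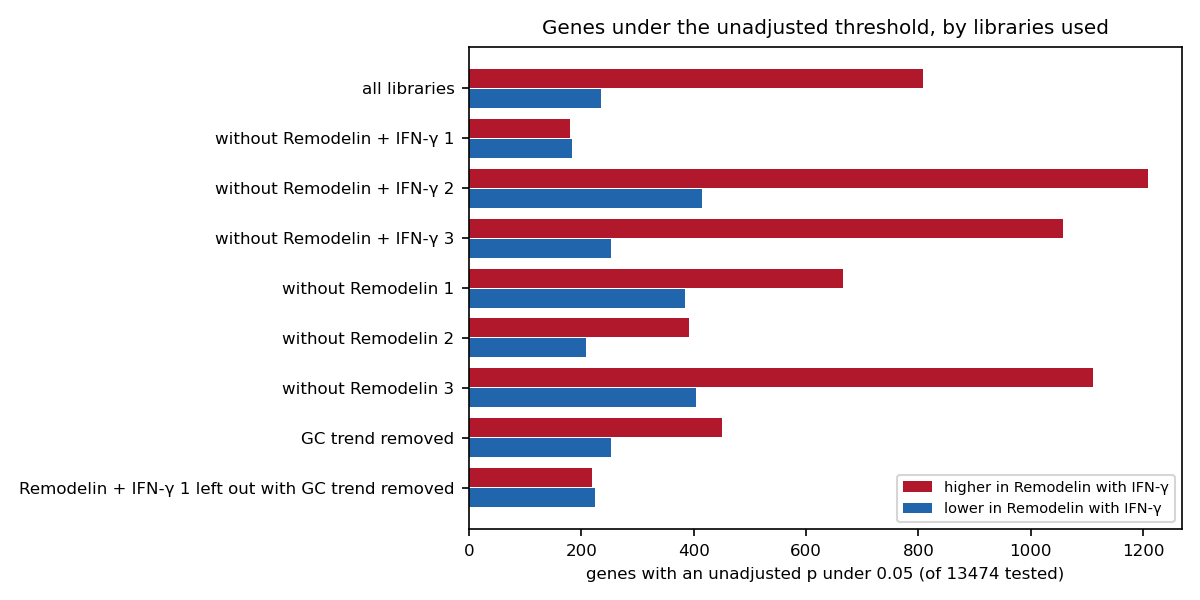
Number of genes with an unadjusted p under 0.05 in Remodelin with IFN-γ against Remodelin, on the higher side (red) and lower side (blue), by the libraries used and by removal of GC trends. The excess of 808 over 235 with all libraries is gone without Remodelin with IFN-γ library 1, where the counts are 179 and 184.

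Across 13339 genes the log2 fold change had a Spearman correlation of -0.508 with transcript GC content, and of 0.015 with transcript length. The median log2 fold change ran from 0.27 in the tenth of genes with the lowest GC content, around 39.8%, to -0.20 in the tenth with the highest, around 59.6%. Genes on the higher side of the unadjusted threshold had a median GC content of 43.3%, those on the lower side 55.7% and all tested genes 49.8%. The correlation was -0.175 without Remodelin with IFN-γ library 1, and -0.0046 when Remodelin library 1 was left out as well. The part of this trend in the fold changes of single genes was not tested beyond the values given with the trend removed.

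**Figure D5:**
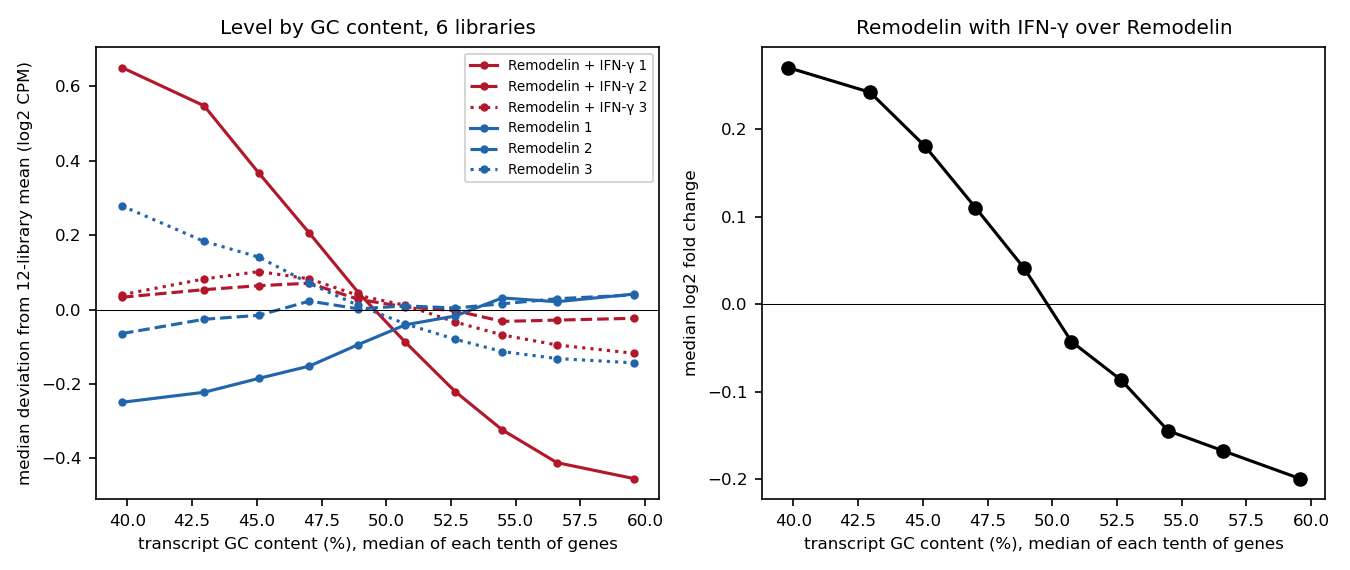
Left, median deviation of log2 CPM from the 12-library mean for 10 equal bins of genes ordered by transcript GC content, with 1 line per library, and right, the median log2 fold change of Remodelin with IFN-γ over Remodelin in the same bins. Remodelin with IFN-γ library 1 runs from 0.65 at the lowest to -0.45 at the highest GC content, the steepest of the 6 lines, and the fold change runs from 0.27 to -0.20.

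Whether IFN-γ acted differently with and without Remodelin was asked of the interaction, the effect of IFN-γ over Remodelin minus its effect over control, which uses all 12 libraries. IFN-γ over control itself called 2 genes (0.0148%), mt-Tp and the predicted gene Gm17066, with 724 at an unadjusted p under 0.05, while the authors' deposited table has 122 genes with an adjusted p under 0.05 for it. The interaction called 1 gene (0.00742%), mt-Tp, with 310 at an unadjusted p under 0.05. mt-Tp, the mitochondrial tRNA for proline, had 38.8, 60.0 and 21.3 CPM with Remodelin and IFN-γ and 30.6, 33.0 and 36.4 CPM with Remodelin only, and the groups overlapped. In cells without Remodelin it had 49.5, 62.6 and 55.4 CPM with IFN-γ and 9.11, 5.54 and 3.69 CPM in controls. The control libraries were therefore the low ones of the 12. The annotated transcript is 67 bases long, and which RNA its reads came from was not tested. The log2 fold changes were 0.27 ± 0.30 over Remodelin and 3.19 ± 0.31 over control, and their difference was -2.92 ± 0.43 (adjusted p = 0.0481 by edgeR). That call was lost in 9 of 12 fits that left out 1 library, with GC trends removed (adjusted p = 0.0717 by edgeR) and with a filter of 50 reads in 3 libraries (adjusted p = 0.114 by edgeR).

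Among protein-coding genes of the mitochondrial genome, 2 of 12 tested had an unadjusted p under 0.05 over Remodelin, on the higher side, and 8 of 12 had one over control, with median log2 fold changes of 0.10 and 0.70. Over all genes 6.0% had an unadjusted p under 0.05 on the higher side over Remodelin, and 2.97% over control. The median over Remodelin was -0.061 with GC trends removed and -0.045 without Remodelin library 1. These genes had a median GC content of 37.4%, and control libraries 2 and 3 had correlations with GC content of 0.534 and 0.55, whose part in the values over control was not tested. mt-Co1, a subunit of cytochrome oxidase, had 6704, 4332 and 3462 CPM with Remodelin and IFN-γ and 2848, 2955 and 3584 CPM with Remodelin only, with overlapping groups. For the interferon lists the 2 comparisons stood side by side as follows. The median log2 fold change was 0.39 over Remodelin and 0.063 over control for the GBP and IRG GTPases, -0.0021 and 0.16 for the antiviral genes, -0.12 and 0.048 for class I presentation, and 0.073 and 0.11 for the chemokines. Without Remodelin with IFN-γ library 1 the medians over Remodelin were 0.072, -0.045, -0.071 and -0.13, in the same order. With GC trends removed they were 0.22, -0.033, -0.015 and -0.0054. None of the 128 tested genes of the 7 interferon lists was called in the interaction.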

How the data were processed

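The deposited table gives raw read counts per gene for all 12 libraries, per the file headers, and FPKM values made by the authors, which were not used. It also holds the authors' own comparisons: group means on a normalised signal scale (not used), log2 fold changes, p-values and adjusted p-values. Per the submitters' processing notes, the tools were featureCounts 1.5.0-p3, HISAT2 2.0.5 and CASAVA 1.8, with no role or order stated. The sources used here do not give the genome build, annotation or strand setting.

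Counts were tested with edgeR 4.0.16 in R 4.3.3 (TMM scaling, filterByExpr by group, quasi-likelihood test), with all 12 libraries in 1 fit so that the groups share an estimate of the spread, and Benjamini-Hochberg adjustment over 13474 genes, called under 0.05. Standard errors and 95% confidence intervals are those of the fitted log2 fold change. The 12 libraries held 15917454 to 19418665 counts, and 3 counts correspond to 0.152 to 0.192 CPM. GC content is that of the longest GENCODE M21 transcript, matched by gene ID for 13339 genes (99.0%), and trends were removed per library by loess with a span of 0.5. DESeq2 1.42.0 and limma 3.58.1 (voom) were alternatives, as were other filters and scalings, a replicate block and leaving out each library. The pipeline was also run on simulated counts, which held no GC trend of single libraries and so do not bear on such trends. Promoters are from RefSeq.

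Members and gene lists were chosen with earlier results of these data known. Genes named are up to 4 with the smallest p of each list described, a panel of 16 interferon and macrophage genes and any gene called, and others were chosen after their values were seen. One gene of the panel is not reported here.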

Additional observations from a re-analysis of the deposited data

Results flagged for a closer look

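The effect of IFN-γ on mt-Tp, the mitochondrial proline tRNA, differed between cells with and without Remodelin by a test of the difference itself, at -2.92 on the log2 scale (adjusted p = 0.0481 by edgeR's quasi-likelihood test with Benjamini-Hochberg adjustment). The log2 fold change was 0.27 over Remodelin and 3.19 over control. The annotated mt-Tp transcript is 67 bases long, and which RNA its reads came from was not tested. Over the fits that left out 1 library, the adjusted p ran from 0.0043 without Remodelin with IFN-γ library 2 to 0.400 without control library 2. Over all settings it ran from 3.46e-21 without a count filter to 0.998 with GC and length trends removed. The call was lost when any of 9 of the 12 libraries was left out.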

How the results depend on the processing

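For Remodelin with IFN-γ against Remodelin the count of 0 genes held with DESeq2 size factors, a filter of 50 reads in 3 libraries, limma-voom, the 2 groups alone, GC and length trends removed, and each library left out in turn (0 to 0). It was 6 without a count filter (Fkbp3, Gm14296, Gm6192, Hmgb2, Lsm5 and mt-Tl2), 1 with DESeq2 on the 24366 genes with any read (Lsm5), 1 with DESeq2 on the 13474 genes of the count filter (Lsm5 again, chosen after seeing the data) and 1 (Rpl17) when Remodelin with IFN-γ library 1 and Remodelin library 1 were both left out, a setting chosen after seeing the data. For IFN-γ against control, with 2 genes, the count was 1 with DESeq2 size factors, 52 without a filter, 1 with 50 reads, 4 with DESeq2 on either set of genes, 1 with limma-voom, 21 with the 2 groups alone, 1 with the replicate block, 1 with GC trends removed, 1 with GC and length trends removed, 1 with block and GC together, and 1 to 2 with a library left out. The interaction, with 1 gene, gave 19 without a filter, 0 with 50 reads, 0 with GC trends removed, 0 with GC and length trends removed, 2 without both first libraries, 0 without Remodelin with IFN-γ library 1 and with GC trends removed (also chosen after seeing the data), and 0 to 1 with a library left out. The cause of these shifts was not tested. No result reversed its sign past a threshold.

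Deviations of libraries with the same replicate number had correlations of 0.125, 0.261 and -0.0667 between the Remodelin groups. For libraries of different numbers they ran from -0.318 to 0.192. The numbers are not stated to pair libraries and were not taken as pairs. With the replicate number as a block, 0 genes were called over Remodelin and 590 had the higher and 190 the lower level at an unadjusted p under 0.05. With 3 libraries a group and a median standard error of 0.22 on the log2 scale, small changes could not be told from the spread between libraries, which in the Remodelin groups gave a chi-square per degree of freedom of 15.1 to 84.3 between replicates, where counting error alone gives about 1.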
